A study of Mus musculus with 6 samples.

Results

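The insulin-like growth factor (IGF) axis was followed through the uteri of aged CD-1 mice as 10 genes, the ligands Igf1 and Igf2, the receptors Igf1r and Igf2r, and the binding proteins Igfbp2, Igfbp3, Igfbp4, Igfbp5, Igfbp6 and Igfbp7. The members were taken by gene name and not by their values, although earlier results of these data were known. All 10 were among the 24077 genes counted in single cells and the 30828 genes counted in tissue sections. Female pups were injected under the skin on days 1 to 5 after birth with diethylstilbestrol (DES, 1 mg/kg/day), a synthetic estrogen, or with its vehicle corn oil (CO), and uteri were taken at 12 months of age. The CO mice were chosen in estrus by vaginal observation, and DES mice stay in persistent estrus. The single-cell data held 1 CO library, in which 2 mice were pooled, and 1 DES library, in which 4 mice were pooled, and the spatial data held 2 CO and 2 DES sections (A and B) from 1 mouse each. The DES sections were chosen for containing adenocarcinoma, CO B had a fold in the tissue, and the separate clusters of DES B were harder to tell apart.

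IGF1 is the main local mediator of estrogen-driven growth in the uterus, where it is made in the stroma and acts on the epithelium through the tyrosine kinase receptor IGF1R. IGF2 is a fetal growth factor made from an imprinted gene, and IGF2R binds IGF2 and carries it to lysosomes for degradation. The binding proteins hold IGFs outside cells and so lengthen or limit their action. IGFBP6 prefers IGF2, and IGFBP7 binds IGFs only weakly and is a product of vessel walls.

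The CO library held 32387 cells and the DES library 16312, of which 12253 and 9701 carried a deposited cell type, and 180 barcodes occurred in both libraries. The sections held between 9117099 and 12506177 unique molecular identifiers (UMIs), each standing for 1 captured RNA. The DES library held 1 stromal cell, 5 endothelial cells and no pericytes or myocytes, so these types could be described in CO only. The labels were checked against their markers. The 5 muscle markers summed to 26530 CPM (UMIs scaled to a total of 1000000) in myocytes and the 3 endothelial markers to 1654 CPM in endothelial cells. The cells labelled lymphocytes carried more of the 3 myeloid markers (3258 CPM in CO and 8660 in DES) than of the 3 lymphocyte markers (722 and 449 CPM). The cells labelled mesothelial had 2343 CPM (CO) and 2486 CPM (DES) of the mesothelial markers, and more of the 5 stromal markers (17796 and 19031 CPM) than the stromal cells themselves (11622 CPM).

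Igfbp2 and Igfbp3 carried the differences that passed the tests below, and the 250 bases before the start of each gene are shown for that reason. The sequences are those of RefSeq on the build GRCm38.p6, 5′ to 3′ on the strand of the gene, with capitals for the motifs searched. The Igfbp2 window is chr1:72824230-72824479 on the plus strand and the Igfbp3 window is chr11:7213924-7214173 on the minus strand.
Igfbp2: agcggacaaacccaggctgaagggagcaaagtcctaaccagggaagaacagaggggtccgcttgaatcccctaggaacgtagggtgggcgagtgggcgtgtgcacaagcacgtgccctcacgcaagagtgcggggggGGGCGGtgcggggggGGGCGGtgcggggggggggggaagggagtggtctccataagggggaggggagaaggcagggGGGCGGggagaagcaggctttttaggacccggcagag
Igfbp3: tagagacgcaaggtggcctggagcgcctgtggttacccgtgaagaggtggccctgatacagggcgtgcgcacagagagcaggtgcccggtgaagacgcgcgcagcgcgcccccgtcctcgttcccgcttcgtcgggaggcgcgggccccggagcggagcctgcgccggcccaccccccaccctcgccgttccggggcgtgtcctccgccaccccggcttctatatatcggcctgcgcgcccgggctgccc
The Igfbp2 window held 3 GC boxes (GGGCGG) and the Igfbp3 window none of the motifs. The search covered both strands of 14 RefSeq promoters of the 10 members, each from 250 bases before to 50 bases after a gene start. A full estrogen response element, the palindrome of GGTCA and its reverse complement with 3 free bases between them that estrogen receptor dimers bind, was in no member's promoter and in 0.07% of all 32851 promoters. The single arm GGTCA, which lies within the full element, was found in 8 of the 14 member promoters, of 7 members, and in 40.5% of all promoters. A GC box was found in 6 of the 14, of 5 members, and in 35.7% of all promoters. An AP-1 site (TGANTCA) was found for Igf1 and a second promoter of Igfbp2 (7.81% of all promoters), and a TATA box (TATAAA) for Igfbp4 and Igfbp6 (13.6%). These matches describe the letters of the windows only. The UMIs were read from the 3′ end of RNAs and do not show which promoter was used.

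Igf2 RNA was at the limit of detection. In GRCm38 the gene lies at chr7:142650766-142666816. No UMI was counted in the 12253 CO cells with a cell type or in the 20134 without one, and 1 UMI was counted in all DES cells, in the mesothelial group. In the sections 1 UMI was counted in DES A and none in CO A, CO B or DES B, where 3 UMIs would correspond to 0.240, 0.272 and 0.304 CPM. The gene was filtered out of every test for low counts.

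Igf1 (chr10:87858265-87937042) was a gene of the stroma and muscle in the CO uterus. The cells that the authors named for Ctla2a, a protease inhibitor gene, had 1002 CPM (exact Poisson 95% interval 965 to 1040, covering counting error only), the stromal cells 778 CPM (763 to 795) and the myocytes 582 CPM (538 to 629). These 3 levels did not overlap in their intervals. Mesothelial cells had 374 CPM in CO and 295 CPM in DES, CO pericytes 176 CPM and CO endothelial cells 77.6 CPM. Epithelial cells were the lowest, with 7.40 CPM in CO and 1.65 CPM in DES. These levels were below those of the cells labelled lymphocytes in the same libraries, 35.6 and 16.8 CPM, and were not read as expression. The lymphocytes serve here and below as the reference for RNA from other cells, but by their markers they are partly myeloid, and cells labelled myeloid had 135 CPM (CO) and 80.4 CPM (DES) of Igf1. The median depth was 23458 UMIs in CO epithelial cells and 4033 in CO lymphocytes. After thinning to 3000 UMIs, with shallower cells left out, an Igf1 UMI was found in 2.11% and 7.74% of the remaining cells. Before thinning it was found in 16.1% and 11.1% of all cells, in the same order. RNA from other cells weighs more in the CPM of shallow cells, so this reference cannot decide whether a lower level is expression.

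The receptors were counted in every CO cell type of at least 50 cells, but not everywhere clearly above the lymphocytes. Igf1r (chr7:67952827-68233668) ranged from 31.6 CPM in lymphocytes and 32.6 CPM in stromal cells to 88.2 CPM in the Ctla2a cells of the CO library. In mesothelial cells it was at 62.8 CPM in CO and 72.9 CPM in DES. Igf2r (chr17:12682406-12769664) was highest in CO endothelial cells, at 56.3 CPM (47.6 to 66.1), and lay between 4.87 CPM (3 UMIs in myeloid cells) and 34.1 CPM in the other CO types of 50 or more cells, with lymphocytes at 16.5 CPM. In mesothelial cells it was at 24.2 CPM in CO and 23.7 CPM in DES.

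**Figure D1:**
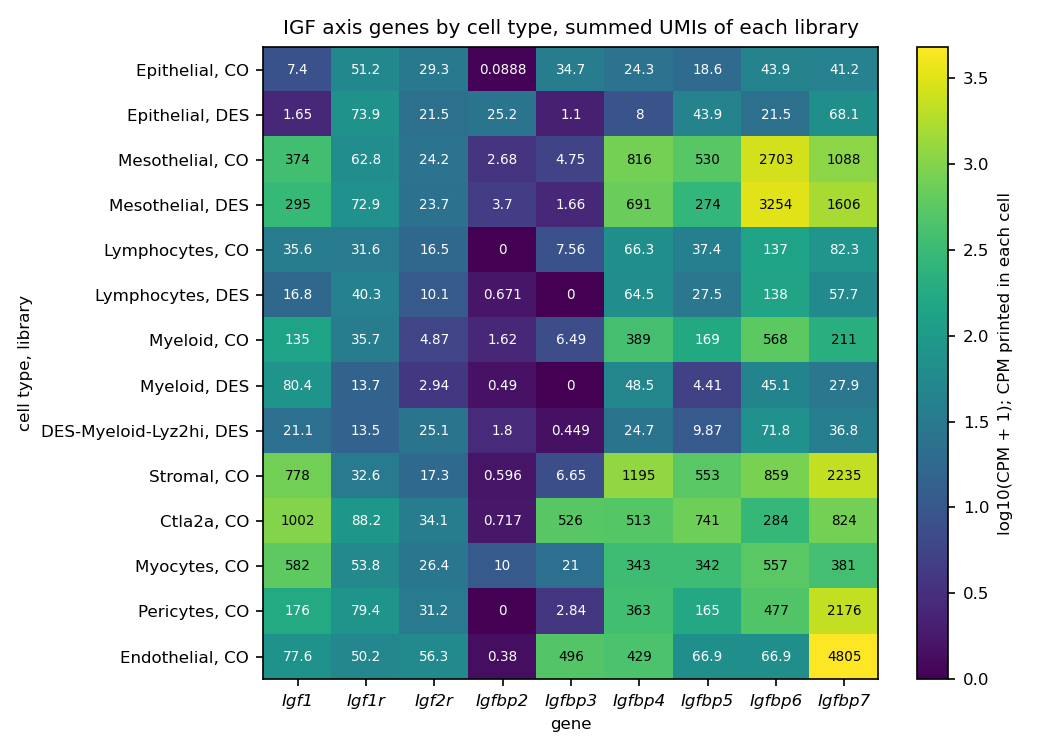
Level of each gene (columns; Igf2, with 1 UMI in all, is left out) in each cell type with 50 or more cells (rows, split by library), with the color for log10(CPM + 1) and the CPM printed in each field. Igf1 and Igfbp5 were highest in the Ctla2a cells (1002 and 741 CPM), Igfbp4 in stromal cells (1195 CPM), Igfbp6 in the mesothelial rows (2703 and 3254 CPM) and Igfbp7 in endothelial cells (4805 CPM).

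The binding proteins were led by different cell types. Igfbp7 (chr5:77349240-77408041) reached 4805 CPM (4722 to 4890) in CO endothelial cells, followed by stromal cells at 2235 CPM and pericytes at 2176 CPM, and the stromal and pericyte intervals overlapped. Igfbp6 (chr15:102144362-102149511) led in mesothelial cells, with 2703 CPM in CO and 3254 CPM in DES, against 859 CPM in CO stromal cells. Igfbp4 (chr11:99041244-99054392) led in stromal cells at 1195 CPM and in mesothelial cells at 816 CPM in CO and 691 CPM in DES. Igfbp5 led in the Ctla2a cells at 741 CPM, ahead of stromal cells at 553 CPM and CO mesothelial cells at 530 CPM. Igfbp3 was split between 2 CO types, the Ctla2a cells at 526 CPM (499 to 553) and endothelial cells at 496 CPM (469 to 523), whose intervals overlapped, and stayed at 20.97 CPM or less in every other type with 50 or more cells except the epithelium. Igfbp2 had few UMIs in the dissociated CO uterus, where its highest level in a type of at least 50 cells was 10.0 CPM (5.01 to 17.9) in myocytes.

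Mesothelial cells were well sampled in both libraries, with 6866 CO and 3837 DES cells. Igfbp5 was at 530 CPM in CO and 274 CPM in DES, a ratio of DES to CO of 0.517 (95% interval 0.508 to 0.526). Igfbp3 was low in both, at 4.75 and 1.66 CPM, with a ratio of 0.348. Igfbp7 went the other way, from 1088 to 1606 CPM, with a ratio of 1.48 (1.46 to 1.49). Of the 7 members with at least 10 CPM in either library, none had a level in DES at least 2 times that in CO or the reverse, where 1.89% and 2.33% of 8814 genes did. These ratios compare 1 pool of mice with another and carry no test. In the 67 CO and 228 DES myeloid cells 5 of 6 such members were at least 2 times higher in CO, as were 22.8% of 8645 genes, and the CO cells also held 4348 CPM of the stromal markers against 215 CPM in DES.

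Within the CO epithelium Igfbp3, Igfbp4, Igfbp5, Igfbp7 and Igf1r were higher in a gland group than in luminal cells, whereas Igf2r was at 21.6 CPM in the developing gland and 30.4 CPM in luminal cells and Igfbp6 lay between 42.5 and 55.0 CPM in the luminal and both gland groups. The authors' clusters 3, 8 and 14 are developing glandular epithelium, cluster 13 is mature glandular epithelium, and 10 other clusters are luminal epithelium (LE). Cluster 13 carried the gland genes Prss29, a serine protease (51277 CPM), and Foxa2, a gland transcription factor (82.0 CPM against 6.72 CPM in LE). Because these counts also defined the clusters, the levels that follow are descriptions.

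Igfbp3 (chr11:7206086-7213923), which can carry IGFs or keep them from the receptor, marked the developing gland. It was at 356 CPM in cluster 3 and 295 CPM in cluster 8, and 243 UMIs were counted in the 28 cells of cluster 14. In the 10 LE clusters it lay between 1.09 and 3.88 CPM. After thinning to 3000 UMIs, with shallower cells left out, 45.4% of 355 developing gland cells had an Igfbp3 UMI. The share was 0.482% of LE cells and 2.90% of CO lymphocytes (75.2% and 5.39% of all developing gland and LE cells before thinning). The mature gland was at 7.86 CPM (3.16 to 16.2), near the lymphocytes (7.56 CPM).

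Igf1r was also higher in the gland. It was at 158 CPM in cluster 3, 109 CPM in cluster 8 and 111 CPM in the mature gland, against 21.7 to 80.8 CPM in the LE clusters. Igfbp7 was at 148 CPM in the developing gland, 44.9 CPM in the mature gland and 29.1 CPM in LE, and only the first of these was above CO lymphocytes (82.3 CPM).

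Igfbp4 and Igfbp5 had the reverse order and were found in the mature gland. Igfbp4 was at 292 CPM (258 to 330) in the mature gland, 25.2 CPM in the developing gland and 19.9 CPM in LE, and 28.3% of the thinned mature gland cells had a UMI. Igfbp5 was at 101 CPM (81.3 to 124) in the mature gland and at 11.6 CPM in the developing gland. In lymphocytes, Igfbp4 was at 66.3 CPM and Igfbp5 at 37.4 CPM, and of the epithelial groups only the mature gland exceeded both, although LE clusters 5 and 9 had 47.8 and 47.3 CPM of Igfbp5.

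The order of Igfbp3 and Igfbp4 was also seen in the authors' separate clustering of gland cells for a trajectory analysis. In its clusters 0, 1 and 2, all developing gland, Igfbp3 was at 354, 368 and 208 CPM and Igfbp4 at 18.0, 16.4 and 18.0 CPM. In the small cluster 7 of mature gland (33 cells), 3 UMIs of Igfbp3 and 237 of Igfbp4 were counted (4.62 and 365 CPM). In cluster 5, the other mature gland cluster (33 cells), the counts were 11 and 25 UMIs (32.5 and 74.0 CPM). This Igfbp4 level was near that of CO lymphocytes (66.3 CPM). In cluster 6 (34 cells), where the authors began the trajectory, they were 329 and 46 UMIs (297 and 41.5 CPM). Cluster 8 (21 cells) had the highest Igfbp3, with 399 UMIs (1043 CPM). These cells are the gland cells already described and add no independent sample.

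The DES epithelium had no cluster with the Igfbp3 level of the developing gland. Non-basal DES epithelial cells, 4608 cells in 16 clusters, had 0.543 CPM of Igfbp3 against 34.7 CPM over all 2583 CO epithelial cells, a ratio of 0.0156, and none of the 16 clusters exceeded 3.19 CPM. Igfbp4 was at 6.76 CPM in DES and 24.3 CPM in CO (ratio 0.278), both below the lymphocytes. DES cluster 8 had the highest Igfbp4 of the 16 clusters (24.4 CPM, median 5.65 CPM), below the 64.5 CPM of DES lymphocytes. It also had the highest Igfbp5 but for cluster 7 (64.0 CPM) and the lowest Igfbp7 (8.69 CPM). Its Foxa2 was at 49.9 CPM, less than in cluster 14 (68.9 CPM), and its Prss29 was at 0 CPM. Igf1r was at 72.3 CPM in DES and 51.2 CPM in CO (ratio 1.41, interval 1.36 to 1.46) and varied less in DES, from 53.2 to 96.4 CPM between clusters, than in CO, from 21.7 to 158 CPM among clusters of at least 50 cells. Igf2r was at 21.7 and 29.3 CPM (ratio 0.742). Igfbp5 was at 39.3 CPM in DES and 18.6 CPM in CO, a ratio of 2.11 (1.99 to 2.23), and without DES cluster 7 it was at 32.4 CPM, less than 2 times the CO level. Lymphocytes had 37.4 CPM in CO and 27.5 CPM in DES. The CO level was below this reference, which cannot decide whether a lower level is expression. Of 7 members with at least 10 CPM in either library, Igfbp5 was at least 2 times higher in DES, as were 6.92% of 8414 genes, and Igfbp3, Igfbp4 and Igfbp6 were at least 2 times higher in CO, as were 7.71%. The CO value of Igfbp3 rests on the 355 developing gland cells, since LE cells alone had 2.14 CPM, and both libraries' Igfbp6 levels (43.9 and 20.9 CPM) were below those of their lymphocytes (137 and 138 CPM).

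Igfbp2 (chr1:72824503-72852474) binds IGF1 and IGF2 and lies 5458 bases from Igfbp5 (chr1:72857932-72874884). Among the dissociated epithelial cells it was highest in the basal cells that occur in the DES uterus. In the sections it was also at 260 and 547 CPM in the muscle-rich spots of CO A and CO B. Basal cells were taken as DES cells in which Krt14, a keratin, and Trp63, a transcription factor, each had more than 1 UMI. These 483 cells had 308 CPM (297 to 319) of Igfbp2, and 48.7% of them had an Igfbp2 UMI after thinning. In the authors' 2 basal clusters of the integrated analysis, which hold 472 of these 483 cells, it was at 368 CPM (cluster 8) and 265 CPM (cluster 11). In CO epithelium 7 UMIs were counted in 2583 cells (0.0888 CPM), and DES lymphocytes had 1 UMI, or 0.671 CPM.

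Among non-basal epithelial cells, most Igfbp2 lay in 1 of the 16 DES clusters. Cluster 7, with 215 cells, had 80.7 CPM (75.0 to 86.7) and held 737 of the 884 Igfbp2 UMIs of all non-basal DES epithelial cells. The other 15 clusters had between 0 and 7.37 CPM, and the non-basal level without cluster 7 was 0.949 CPM. Cluster 7 was no basal cluster by its markers, with 16.9 CPM of the 3 basal markers against 5211 CPM in basal cells. It also had the highest Igfbp5, at 155 CPM, and the highest Igfbp7, at 306 CPM, of the 16 clusters, and 39.5% and 58.6% of its thinned cells had a UMI of these genes. Basal cells were close to it, at 102 CPM of Igfbp5 and 257 CPM of Igfbp7, whereas the other 15 clusters reached 64.0 and 94.9 CPM.

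Cluster 5, which the authors proposed as the cancer cells and which held the highest level of Olfm4 (685 CPM), a gene of crypt stem cells, had the lowest Igf1r of the 16 clusters, at 53.2 CPM (median 67.0 CPM). It had 86.5 CPM of Igfbp7 (median 26.2 CPM), 3.72 CPM of Igfbp2 (median 0.413 CPM) and 30.9 CPM of Igfbp5 (median 31.2 CPM).

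**Figure D2:**
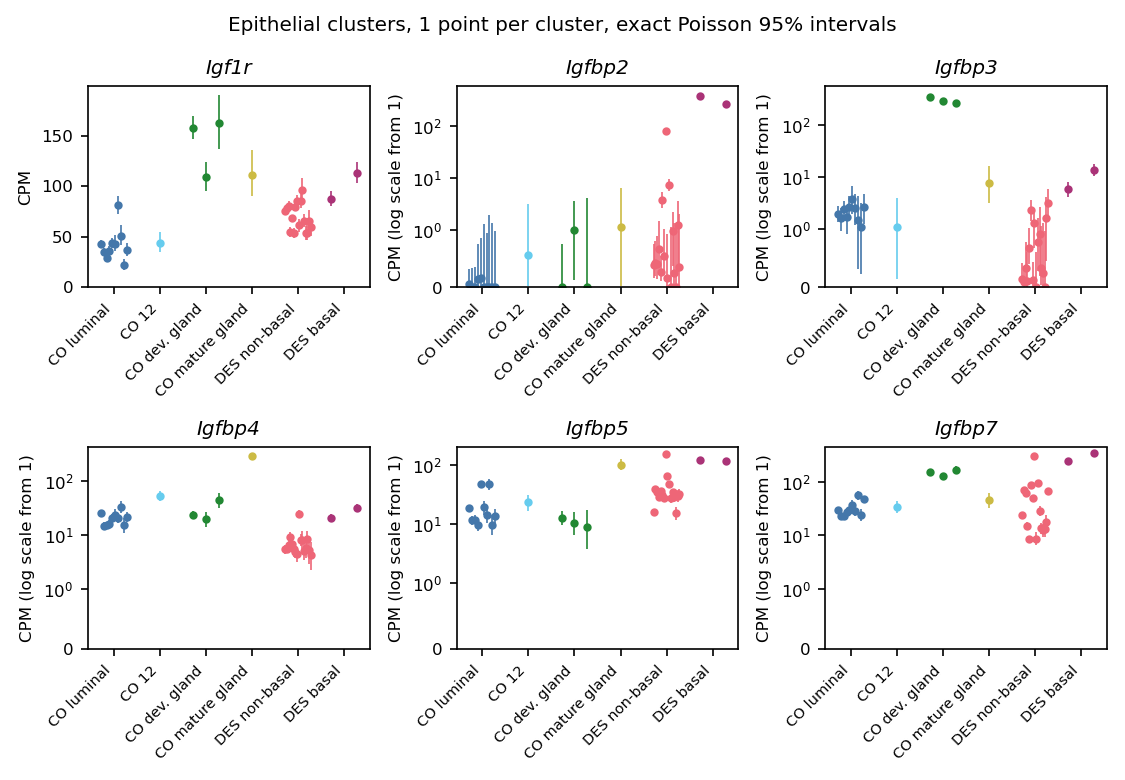
CPM of 6 genes in each of the authors' epithelial clusters (1 point each, bars are exact Poisson 95% intervals, axis linear below 1 CPM and logarithmic above, linear throughout for Igf1r), ordered as CO luminal, CO cluster 12, CO developing gland, CO mature gland, DES non-basal and DES basal (integrated clusters 8 and 11). Igfbp3 stood at 268 to 356 CPM in the 3 developing gland clusters, Igfbp4 at 292 CPM in the mature gland, and Igfbp2 at 265 and 368 CPM in the basal clusters and at 80.7 CPM in DES cluster 7.

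The sections allowed a test of DES against CO over animals, 2 against 2. UMIs were summed per section and tested with edgeR's quasi-likelihood test and Benjamini-Hochberg adjustment over all genes. An exact test over 2 against 2 sections cannot give less than 0.333, so the p-values draw on a spread that edgeR shares between genes. In whole sections none of the 9 members tested passed an adjusted p of 0.05, where 5.3% of 14098 genes did, although 4 members had an unadjusted p under 0.05, as did 3438 genes, and DESeq2 called 4 (Igfbp4, Igfbp5, Igfbp6 and Igfbp7), among 1791 genes.

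The median log2 fold change was -0.78 over the 9 members, -0.21 over the related pathway genes described below and -0.01 over all genes. In whole sections Igfbp4, Igfbp5, Igfbp6 and Igfbp7 had lower CPM in both DES sections than in both CO sections. Igfbp6 was at 464 CPM in CO A and 1246 CPM in CO B, and the DES sections were at 272 and 191 CPM (log2 fold change -2.09, SE 0.50, adjusted p = 0.088). Igfbp5 was at 199 and 247 CPM in the CO and at 144 and 105 CPM in the DES sections (log2 fold change -1.05, SE 0.22, adjusted p = 0.065). Igfbp4 was at 310 and 302 CPM in CO and at 214 and 142 CPM in DES (log2 fold change -0.997, SE 0.23, adjusted p = 0.083). Both DES sections were below both CO sections for 5 members (Igf1, Igfbp4, Igfbp5, Igfbp6 and Igfbp7), as for 17.9% of all genes, and above both for Igfbp2 alone (70.1 and 176 CPM in CO, 190 and 348 CPM in DES), as for 43.8%. Igf1 was at 168 CPM in CO A but at 55.6 CPM in CO B, next to 55.3 and 47.5 CPM in DES (adjusted p = 0.22), so the 2 CO sections differed from each other by more than CO B did from DES.

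Tissue makeup moved with these values. The 5 muscle markers summed to 13345 and 14168 CPM in the CO sections and to 3077 and 3458 CPM in the DES sections, and the 5 stromal markers to 2452 and 2453 CPM against 1140 and 762 CPM. The 3 basal markers summed to 3.36 and 160 CPM in CO and to 9526 and 5644 CPM in DES. Fewer cells of a type and less RNA per cell cannot be told apart in such sums, and the part of makeup in the whole-section values was not tested. The 4 genes called from 29 tested genes of a wider IGF pathway list (IGF2BP proteins, insulin receptor, adaptors, binding protein proteases and PI3K signaling) were all lower in DES, as were 2.63% of all genes. They were Igf2bp2, an RNA-binding protein of Igf2 mRNA (28.2 and 35.5 CPM in CO, 5.59 and 5.57 CPM in DES, log2 fold change -2.72, SE 0.22, adjusted p = 0.019), Grb10, an inhibitory adaptor of the receptors (log2 fold change -1.50, adjusted p = 0.026), and the proteases Htra1 (-1.39, adjusted p = 0.029) and Adamts1 (-2.15, adjusted p = 0.028).

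**Figure D3:**
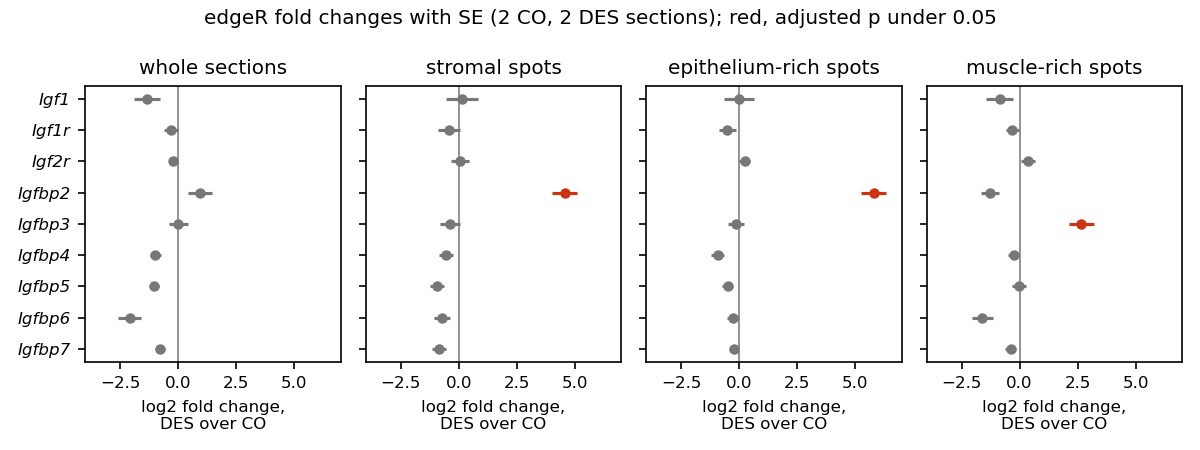
log2 fold change of DES over CO for the 9 members tested, with SE bars from edgeR over 2 CO and 2 DES sections, in whole sections and in the 3 spot classes, red where the adjusted p was under 0.05. Igfbp2 was the red point in stromal spots (4.56) and epithelium-rich spots (5.80), and Igfbp3 in muscle-rich spots (2.65).

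Spots were then compared by tissue. Epithelium-rich spots were the top 20% of a section by the share of UMIs from 5 epithelial markers, muscle-rich spots the top 20% by 5 muscle markers, with spots in both left out, and stromal spots were the clusters that the authors named as stroma.

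In epithelium-rich spots Igfbp2 was all but absent from CO and abundant in DES. It was at 2.11 and 6.27 CPM in CO A and CO B, and at 215 and 354 CPM in DES A and DES B. Both DES sections were far above both CO sections, and the difference passed the test (log2 fold change 5.80, SE 0.55, adjusted p = 0.0120). It was the 1 member of 9 called, where 7.16% of 11721 genes were called and 4.4% were called higher in DES. The basal markers differed in the same spots, at 4.68 and 178 CPM in CO and 9305 and 6706 CPM in DES. An alternative added after the data were seen took the epithelium-rich spots outside the top 20% of their section by basal markers. There Igfbp2 was at 2.30 and 2.43 CPM in CO and at 224 and 321 CPM in DES (edgeR log2 fold change 6.52, adjusted p = 0.00231). The basal markers still summed to 7112 and 4998 CPM in these DES spots. In CO A they summed to 3.36 CPM over the whole section, too few to rank its spots. This split therefore cannot decide the Igfbp2 level of epithelium without basal cells. For comparison, the dissociated DES epithelial cells had 5.39 CPM when non-basal and 308 CPM when basal.

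No other member passed the test in epithelium-rich spots. Both DES sections were above both CO sections for Igfbp2 and Igf2r, as for 47.8% of genes, and below both for Igfbp4, as for 14.1%. CPM lack the normalization of the edgeR test, in which the median log2 fold change over all genes in these spots was -0.018. The 2 scales can therefore differ in direction. Igfbp4 was at 132 and 128 CPM in CO and at 106 and 63.8 CPM in DES (log2 fold change -0.93, SE 0.27, adjusted p = 0.10). Igfbp3 lay between 8.65 and 11.8 CPM in all 4 sections. The 5 epithelial markers that chose these spots summed to 5002 CPM in CO LE cells and to 2978 CPM in the developing gland, where Igfbp3 was high. These spots therefore cannot decide whether the difference between the cell libraries was present in the tissue. Igf1 lay between 7.36 and 29.2 CPM, with the 2 CO sections as the extremes (log2 fold change -0.02, adjusted p = 0.99, but 1.34 without CO A). Of the pathway list, 2 genes were called lower in DES in these spots, as were 2.76% of all genes. They were Grb10 (29.9 and 23.2 CPM in CO, 9.57 and 6.20 CPM in DES, log2 fold change -2.06, SE 0.34, adjusted p = 0.030) and Igf2bp2 (48.9 and 67.9 CPM in CO, 7.83 and 5.76 CPM in DES, log2 fold change -3.40, SE 0.30, adjusted p = 0.011). The dissociated cells did not show this order, with Igf2bp2 at 37.2 CPM in CO LE and 44.5 CPM in non-basal DES cells and Grb10 at 20.8 and 22.7 CPM, although DES basal cells had 11.5 and 8.49 CPM.

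In stromal spots Igfbp2 was again the difference. It was at 7.16 and 9.76 CPM in CO A and B and at 144 and 289 CPM in DES A and B (log2 fold change 4.56, SE 0.54, adjusted p = 0.0185), and it was the 1 of 9 members called, where 1.47% of 8914 genes were called and 0.796% were called higher in DES. The DES stromal spots were not stroma alone. They held 2705 and 8369 CPM of the muscle markers and 7058 and 1998 CPM of the basal markers, against 888 and 700 CPM and 0 and 90.0 CPM in CO, and 15 of 211 and 69 of 132 of them were also muscle-rich, compared with none in CO. Without the muscle-rich spots, also added after the data were seen, Igfbp2 was at 137 and 229 CPM in DES (log2 fold change 4.30, adjusted p = 0.00873). The dissociated CO stromal cells had 0.596 CPM of Igfbp2.

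The stromal products of the axis did not pass the test in stromal spots. Igfbp7 was at 3553 and 3605 CPM in CO and at 2221 and 1873 CPM in DES (log2 fold change -0.85, SE 0.31, adjusted p = 0.27). The stromal markers of the same spots summed to 5452 and 4056 CPM in CO and to 2890 and 1923 CPM in DES, and their part in these values was not tested. Igfbp5 was at 430 and 321 CPM in CO and at 242 and 162 CPM in DES (log2 fold change -0.94, SE 0.32, adjusted p = 0.23). Both DES sections were below both CO sections for these and for Igfbp4 and Igfbp6, 4 of 9 members, as for 18.1% of genes, and above both for Igfbp2 alone, as for 24.7%. Igf1, the stromal ligand, was at 227 CPM in CO A and 32.5 CPM in CO B, with DES between them at 127 and 162 CPM, so the direction depended on the sections taken. Without CO A the log2 fold change was 2.04, without CO B it was -0.70, and without DES B it was -0.14. None of the 25 pathway genes tested was called in stromal spots, where edgeR called 1.47% of 8914 genes.

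In muscle-rich spots the order of Igfbp2 was the reverse of that in epithelium. It was at 260 and 547 CPM in CO and at 158 and 238 CPM in DES (log2 fold change -1.27, SE 0.39, adjusted p = 0.13), both DES sections below both CO sections but not past the threshold. The muscle markers of these spots summed to 48546 and 48774 CPM in CO and to 23902 and 20264 CPM in DES, and the basal markers to 1.34 and 8.62 CPM and to 2119 and 1946 CPM, and their part was not tested. The Igfbp2 difference passed with no filter beyond 1 count, in the top 10% of spots and with the replicate block, although same-letter sections share only a name. Leaving out a section left 1 in its group, and the log2 fold change then lay between -1.73 and -0.61. Both DES sections were below both CO sections for Igfbp2 and Igfbp6, as for 11.9% of genes, and above both for Igfbp3 and Igf2r, as for 39.9%. The difference between DES and CO was itself different between muscle-rich and epithelium-rich spots, by -7.03 on the log2 scale (SE 0.31, adjusted p = 2.57e-07, edgeR with the section as a block), in a test added after the data were seen, in which 7.71% of 12356 genes were called. It stayed between -7.28 and -6.87 when each section was left out in turn. In the dissociated CO myocytes, only 85 cells, Igfbp2 was at 10.0 CPM.

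Igfbp3 was the 1 member of 9 called in muscle-rich spots, where 3.15% of 10521 genes were called and 1.92% were called higher in DES. It was at 4.91 and 8.14 CPM in CO and at 75.4 and 25.2 CPM in DES (log2 fold change 2.65, SE 0.54, adjusted p = 0.041). Both DES sections were above both CO sections, but DES A was well above DES B, and without DES A the log2 fold change was 1.72 (adjusted p = 0.31). The call was also lost in the top 10% (3.33, adjusted p = 0.067) and the top 30% of spots (2.14, adjusted p = 0.055). Beside the muscle and basal markers, other marker lists differed in these spots. The 3 myeloid markers were at 163 and 438 CPM in CO and at 620 and 692 CPM in DES, the 3 lymphocyte markers at 3.13 and 1.91 CPM and at 28.7 and 32.3 CPM, and the 5 epithelial markers at 269 and 204 CPM and at 529 and 897 CPM. The 3 adipocyte markers were at 0.447 and 3.35 CPM in CO, at 230 CPM in DES A and at 6.29 CPM in DES B. The 3 endothelial markers were at 42.9 and 63.7 CPM in CO and at 186 and 181 CPM in DES, and Igfbp3 was high in endothelial cells. The part of these shifts was not tested. Igfbp6 was at 1015 and 3210 CPM in CO and at 865 and 787 CPM in DES (log2 fold change -1.61, SE 0.46, adjusted p = 0.11), with the CO sections far apart. It passed with DESeq2, with no filter beyond 1 count and with the replicate block. With each section left out in turn, its log2 fold change lay between -2.24 and -0.53. None of the 26 pathway genes tested was called by edgeR in these spots, where 3.15% of 10521 genes were called.

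**Figure D4:**
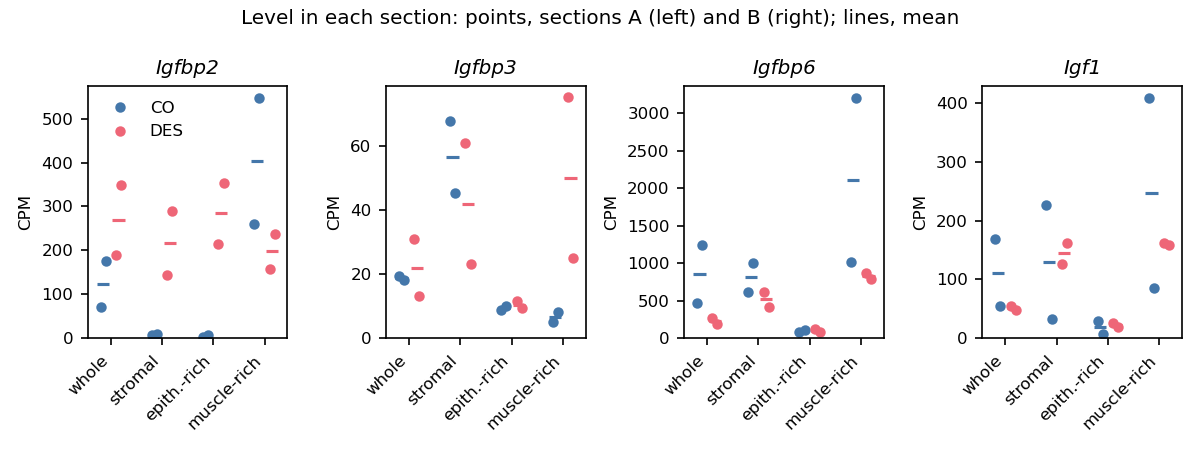
CPM of Igfbp2, Igfbp3, Igfbp6 and Igf1 in each section (points, A left and B right; lines, the mean of 2 sections) by spot class, CO in blue and DES in red. In epithelium-rich spots Igfbp2 was at 2.11 and 6.27 CPM in CO and 215 and 354 CPM in DES, whereas in muscle-rich spots Igf1 (409 and 85.2 CPM) and Igfbp6 (1015 and 3210 CPM) differed widely between CO A and CO B.

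The spot clusters showed where Igfbp2 lay. In CO it went with muscle. In the 9 CO clusters of at least 20 spots with the fewest muscle markers (215 to 1543 CPM) Igfbp2 was at 1.07 to 12.3 CPM, and in the other 10 (3927 to 50766 CPM) at 21.7 to 1358 CPM. The muscle clusters themselves differed, with 626 CPM (576 to 680) in CO A cluster 4 and 21.7 CPM (15.8 to 29.0) in CO A cluster 2, whose muscle markers were at 46411 and 44978 CPM. In CO B the highest was cluster 8, at 1358 CPM, and cluster 5, with the most muscle markers of any cluster (50766 CPM), was at 189 CPM. In DES the split was gone, and the 18 clusters of at least 20 spots lay between 72.3 and 597 CPM. Their muscle markers ranged from 218 to 29583 CPM. The 5 DES clusters with as few muscle markers as the low CO clusters were at 109 to 292 CPM. A CO B cluster of 17 spots, cluster 10, held 6025 CPM of basal markers and 178 CPM of Igfbp2. In the top 20% of spots by basal markers Igfbp2 was at 148 CPM in DES A, below the whole section (190 CPM), and at 440 CPM in DES B, above it (348 CPM).

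**Figure D5:**
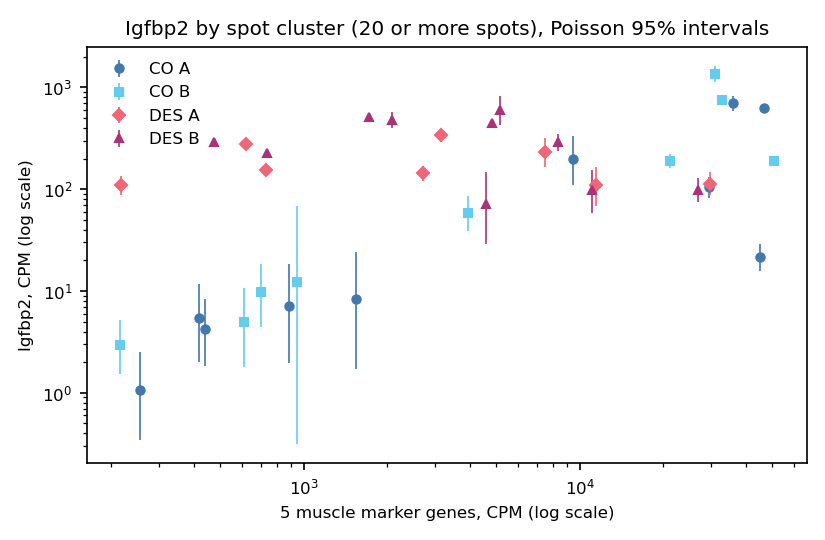
Igfbp2 CPM against the summed CPM of 5 muscle markers in each spot cluster of at least 20 spots (both axes logarithmic, bars are exact Poisson 95% intervals), by section. The 9 CO clusters at the left lie between 1.07 and 12.3 CPM, below all 18 DES clusters, which lie between 72.3 and 597 CPM. The muscle markers of the DES clusters range from 218 to 29583 CPM, and those of the CO clusters reach 50766 CPM.

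The clusters that led for the other members were partly the same in CO and DES. Among clusters of at least 20 spots, Igfbp7 and Igfbp4 were highest in the stromal cluster of CO A (3553 and 838 CPM) and of CO B (3605 and 581 CPM). In DES, Igfbp7 was highest in the stromal cluster of DES A (2221 CPM) but in cluster 10 of DES B (2463 CPM), and Igfbp4 in cluster 7 of DES A (760 CPM) and cluster 9 of DES B (867 CPM). These clusters were not among those named as stroma, but their stromal markers summed to 2987 and 5276 CPM, against 2890 and 1923 CPM in the named clusters. Igfbp5 was highest in the stromal cluster of CO A (430 CPM), in muscle-rich clusters of CO B (cluster 1, 554 CPM) and DES A (cluster 6, 494 CPM), and in cluster 9 of DES B (403 CPM). Igfbp6 was highest in a muscle-rich cluster of every section, CO A cluster 6 (1590 CPM), CO B cluster 5 (3817 CPM), DES A cluster 6 (1037 CPM) and DES B cluster 8 (1035 CPM). Igf1 was highest in a muscle cluster of each CO section, CO A cluster 4 (512 CPM) and CO B cluster 1 (196 CPM), and in DES A cluster 3 (192 CPM) and DES B cluster 9 (176 CPM), whose muscle markers were lower (7467 and 4584 CPM). Across the 40 spot clusters, after the mean of each section was removed, the pattern most like that of a member was described by Pearson's r over 7329 genes. Igfbp7 was most like Igfbp4 (r = 0.90), with Col6a1 and Matn2 next (r = 0.89 for both). Igfbp4 was most like C1s1, a complement protease gene (r = 0.92), with Col4a1 and Plvap next (r = 0.91 for both). Igfbp6 was most like Rcn3, Emp3 and Selm (r = 0.97, 0.96 and 0.96), and Igf1 was most like Bin1, Rarres2 and Entpd1 (r = 0.93, 0.93 and 0.92). Igfbp2 was most like Ltbp1, a binding protein of latent TGF-beta (r = 0.88), with Tnni2 and Ccdc3 next (r = 0.85 and 0.80). Igfbp3 was most like the vessel genes Adgrl4 (r = 0.83) and Rgs5 (r = 0.80), the latter a pericyte marker, with Zeb2 next (r = 0.80). Igfbp5 was most like Tppp3, Gpx4 and Aebp1 (r = 0.86, 0.83 and 0.82). The receptors had weaker partners. They were Dctn4, Sh3bp5l and Arhgef12 for Igf1r (r = 0.73, 0.72 and 0.71, the first 0.60 without clusters under 20 spots) and Rpl22l1, Wdr81 and Tcf12 for Igf2r (r = 0.65, 0.62 and 0.62, the first 0.54). Clusters of a section share its library and depth, so these values carry no test.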

How the data were processed

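Uteri of CO and DES mice were measured by single-cell RNA sequencing (1 library per condition) and Visium spatial RNA sequencing (2 sections per condition). Per the labels and the study's methods, the authors counted UMIs per gene with Cell Ranger 3.0.1 (cells) and Space Ranger 1.2.2 (spots) on mm10, and the deposited counts are not normalized. Cell types, epithelial clusters and spot clusters are the authors'. The sequencing saturation deposited as a fraction by the authors was not used. The sums per cell and spot equalled the deposited totals, and 350 cells listed without counts were left out.

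Group sums of UMIs were expressed as CPM without the TMM factors of the tests below, and their 95% intervals are exact Poisson intervals. Cells were thinned to 3000 UMIs before shares of cells were taken, and cells with fewer UMIs were left out of these shares. Shares before thinning are of all cells. A floor is 3 counts. Intervals and floors describe counting error alone, and no test between cells was made, each condition being 1 library. Doublets were taken as the authors left them.

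Section sums were tested with edgeR 4.0.16 (TMM, filterByExpr, glmQLFit and glmQLFTest, adjusted p under 0.05). The test for whole sections was checked on simulated counts, and that check did not cover the spot classes. DESeq2 1.42.0 was an alternative. The p-values rest on the spread between sections of 1 mouse each, which edgeR shares between genes. Spot classes use marker genes of the same counts. Same-letter sections did not deviate together (correlation of deviations -0.025 to 0.091), so letters were not taken as pairs. Named genes were the 10 members, the called genes of a list of 40 related genes, and the 3 genes most like each member over spot clusters (log2(CPM + 10), genes of at least 20 CPM), leaving out Igf2, which was too low. Alternatives were DESeq2's test or size factors, no filter beyond 1 count, the top 10% or 30% of spots, a block on the letter and leaving out each section. For cells they were the thinning depth, means over cells, a filter on UMIs and mitochondrial counts, cells without shared barcodes (added later) and totals without the 20 most abundant genes. The interaction between spot classes and the spot classes outside muscle-rich or basal-rich spots were added after the data were seen. Members, lists and tests were chosen with earlier results of these data known. Gene positions are from GENCODE M21 (GRCm38). A result of the related list that needs an item withheld here is not reported.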

Additional observations from a re-analysis of the deposited data

Results flagged for a closer look

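4 results stood out by fixed rules. The difference between DES and CO was not the same in muscle-rich and epithelium-rich spots for Igfbp2, by -7.03 on the log2 scale (SE 0.31, adjusted p = 2.57e-07), lower in both DES sections in muscle-rich spots and higher in both in epithelium-rich spots. For Igfbp3 the same edgeR test gave 2.78 (SE 0.55, adjusted p = 0.0099), with both DES sections above both CO sections in muscle-rich spots, and leaving out each section gave 1.97 to 3.20 with adjusted p up to 0.23. The other 7 members tested did not pass this test, which was chosen after the data were seen.

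The cells without a cell type, which enter no comparison of the report, held more of 2 members in DES than in CO. The rule took only members whose counting interval in DES lay above that in CO. Members lower in DES were not looked for, and the share of all genes that meet the rule was not taken. Igfbp2 was at 10.96 CPM (9.99 to 12.0) in 6611 DES cells and at 0.725 CPM in 20134 CO cells, and Igf1r at 56.9 CPM (54.7 to 59.3) and 44.3 CPM. The basal markers summed to 349 CPM in these DES cells and to 3.82 CPM in the CO cells, and the part of basal cells in the Igfbp2 value was not tested.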

How the results depend on the processing

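Section results rest on 2 mice per condition, from 1 slide, and UMI depth limits members at a few CPM. Igfbp2 in epithelium-rich and stromal spots passed the threshold under all 11 and 9 alternatives run, with log2 fold changes of 5.21 to 6.73 and 3.89 to 5.06. Counts of members called moved more. In whole sections they were 0, against 4 with DESeq2 and 0 with the replicate block, and 0 to 4 when each section was left out (4 without CO A and 3 without CO B, where 2819 and 2336 genes were called against 747). In stromal spots the range was 1 to 2 (2 without CO A, with 357 genes called against 131) and in epithelium-rich spots 1 to 4 (4 without CO A, 3 without CO B, with 3206 and 3061 genes called against 839), and the replicate block left both at 1. In muscle-rich spots 1 member was called, against 2 with DESeq2, 4 with no filter beyond 1 count, 3 with the replicate block, 0 with the top 30% of spots, and 0 to 4 when each section was left out (4 without CO A or without CO B, 0 without DES A). Genes called in these fits numbered 338, 1121, 820, 610, 1444, 1691 and 81 in that order, against 331. The replicate block called 453 genes in stromal spots, but same-letter sections share only a name. DESeq2 called 1791 genes in whole sections against 747.

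The largest turned value, that of Igf1 in epithelium-rich spots, came without CO A, a fit with 1 CO section left. Directions turned only for members not called in the reported tests. In whole sections these were Igfbp3 (-0.10 with the replicate block, -0.07 without CO B, -0.72 without DES A) and Igf1r (0.13 without CO B). In stromal spots they were Igf1 (-0.70 without CO B, -0.14 without DES B), Igf1r (0.36 without CO B) and Igf2r (-0.11 without CO B, -0.13 without DES B). In epithelium-rich spots they were Igf1 (0.22 with the replicate block, 1.34 without CO A, 0.18 without DES B, 0.31 in the top 10% of spots, 0.074 outside basal-rich spots) and Igf1r (0.10 without CO B). In muscle-rich spots they were Igf1 (0.64 without CO A), Igfbp5 (0.24 without CO B, 0.25 without DES B, 0.54 in the top 10%) and Igfbp4 (0.022 in the top 10%). In cells the log2 ratio turned for Igfbp6 in lymphocytes (-0.13 as a mean over cells, -0.19 without the 20 most abundant genes) and Igf2r in myeloid cells (0.55 as a mean over cells). Igfbp3 in muscle-rich spots was 3.33 (adjusted p = 0.067) in the top 10% and 2.14 (adjusted p = 0.055) in the top 30% of spots. With each section left out, these members ranged in whole sections from -0.65 to 0.13 (Igf1r) and -0.72 to 0.47 (Igfbp3), in stromal spots from -0.70 to 2.04 (Igf1), -0.87 to 0.36 (Igf1r) and -0.13 to 0.26 (Igf2r), in epithelium-rich spots from -0.69 to 1.34 (Igf1) and -0.94 to 0.10 (Igf1r), and in muscle-rich spots from -1.59 to 0.64 (Igf1) and -0.38 to 0.25 (Igfbp5). The cause of these changes was not tested. Of 198 member values in the sections, leaving out no section, 179 kept their direction and side of the threshold. With a section left out, 111 of 144 member values did, and 14 turned direction. Of 132 cell values 115 stayed within their counting interval. A further set of 90 values, outside these sets, was less stable, with 18 the same and 72 moved. Shares of cells with a UMI after thinning therefore hold for the thinning depth used and were not taken as stable.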
